A study of Homo sapiens with 4 samples.

Results

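Caveolae are small flask-shaped pits of the plasma membrane. The caveolins CAV1 and CAV2 are inserted into the inner leaflet and form the scaffold of the pit, the cavins CAVIN1, CAVIN2 and CAVIN3 assemble as a coat on its cytoplasmic side, and the ATPase EHD2 sits at its neck and holds it at the cell surface. CAV1 and CAVIN1 are both needed for caveolae to form outside muscle, whereas CAV2 depends on CAV1 to reach the membrane. Mammary epithelial cells of the basal type are known to express CAV1. These 6 genes, of 20501 genes with a symbol on the array, were chosen by name for their part in caveolae, with their differences at 48 h in these arrays already known. The values at 48 h are therefore a description. Every probe whose RefSeq transcript belonged to one of the 6 genes was taken, which gave 9 of 50590 probes. CAV1, CAV2 and CAVIN1 had more than 1 probe each, and CAVIN2, CAVIN3 and EHD2 had 1 each.

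The cells were MCF-10A, an established line of non-tumorigenic human mammary epithelium, grown in every group in the same medium with hydrocortisone, EGF, insulin, bovine pituitary extract and cholera toxin. They received 10 µM stapled-peptide or 10 µM non-specific stapled-peptide for 24 h or 48 h, and the labels give the second treatment as control. The peptides belong to a study of the binding of BIG3 to PHB2 in oestrogen-dependent breast cancer, and the arrays address which genes differ between the peptides in normal mammary cells. There was 1 single-colour Agilent array for each peptide and time, all 4 from 1 slide and 1 scan, so no value has a replicate and the peptides were not tested against each other. No array of untreated cells was used here. Every difference below is on the log2 scale, from quantile-normalized signals, and is positive where the signal was higher with non-specific stapled-peptide.

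The arrays were alike in quality, with 62.5% to 65.7% of spots well above background, 343 to 438 of 58717 spots marked as outliers and no saturated spot. The 48 h array of non-specific stapled-peptide stood apart from the rest. Its log2 signals correlated with those of the other 3 arrays at r = 0.799 to 0.807 across probes, against 0.976 to 0.978 among the other 3, and probes of 1 array are not independent replicates. Its marker signals also went against its cell line label, on lists chosen with earlier results of these data known. The 12 markers of basal mammary epithelium summed to signals of 123525 to 123779 on the other 3 arrays and to 752 on this one, where 11 of the 12 were still well above background, and KRT5, a basal keratin, stood at log2 14.65, 14.54, 14.59 and 5.02 (stapled-peptide at 24 h, non-specific stapled-peptide at 24 h, stapled-peptide at 48 h, non-specific stapled-peptide at 48 h, the order used throughout). The 13 markers of neuronal cells and embryonic kidney lines summed to 2725 to 2941 on the other 3 arrays and to 79540 on this one, where 11 were well above background against 4 to 5 elsewhere. By the probe with the highest mean signal, 10 of the 13 were higher by more than 2-fold at 48 h. CDH2 was at 0.23, and PAX2 and L1CAM were at -0.59 and -0.58 or lower, with another probe each at 3.89 and 0.11. The part of these differences in the values at 48 h was not tested. In RNA from a whole culture, fewer cells of a type and less RNA per cell cannot be told apart.

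At 24 h, none of the 9 probes passed a difference of 2-fold, and their values ran from -0.12 to 0.16. Over all 32921 probes with a difference at 24 h the SD was 0.43, and the share past 2-fold was not counted. At 48 h, 8 of the 9 probes were lower with non-specific stapled-peptide by more than 2-fold, 7 of them by more than 10-fold and 2 by more than 100-fold, and 1 probe of CAVIN1 was higher by 2.74-fold. Among all probes with a difference at 48 h, 2.51% were lower by more than 10-fold and 0.416% by more than 100-fold, and 19.4% were higher by more than 2-fold. The share lower by more than 2-fold was counted over genes only, and was 19.8%. Taking for each gene the probe with the highest mean signal, 5 of the 6 genes were lower by more than 10-fold and CAVIN1 was higher, with a median difference of -5.64 against 0.03 over all genes, of which 3.92% were lower by more than 10-fold. The call of CAVIN2 was lost under the normexp background correction and when probes with only a bound were left out, which gave 6 probes and 4 genes in each case. Normexp also made the differences of 6 other probes smaller by more than 0.43, all of CAV1, CAV2, CAVIN3 and EHD2, with CAV1 at -5.83 and CAVIN3 at -7.37. The probe of CAVIN1 that was lower moved by less, from -6.66 to -6.31. At 24 h, 0.0638% of all probes and 0.037% of all genes passed 10-fold in either direction, and 0 of the 9 probes did.

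**Figure D1:**
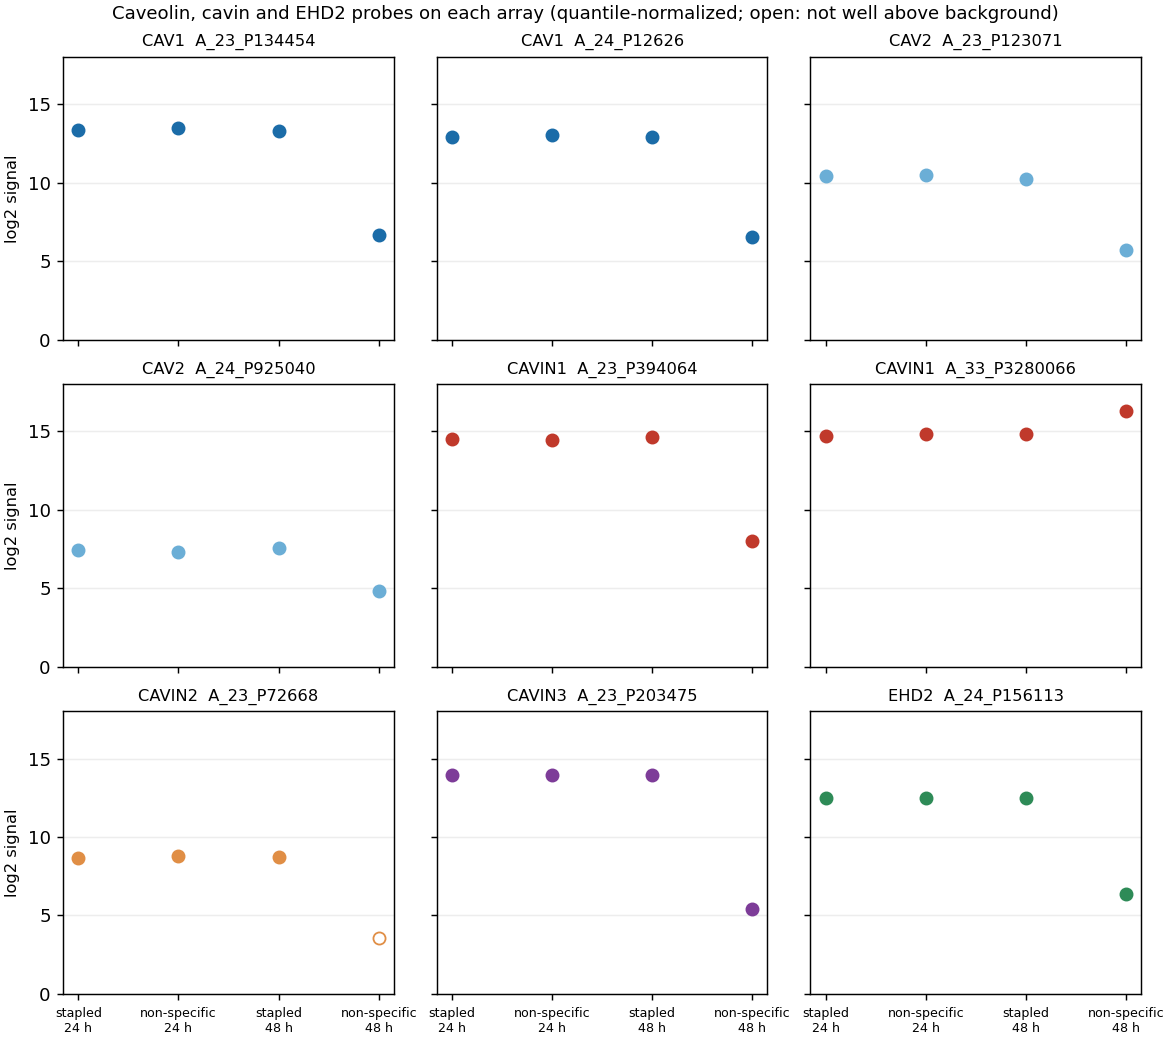
Log2 quantile-normalized signal of each of the 9 probes of the 6 caveola genes on the 4 arrays, 1 point per array, with an open point where the probe was not well above background. In each panel the first 3 arrays lie within 0.251 of each other, and the 48 h array of non-specific stapled-peptide is lower for every probe except A_33_P3280066 of CAVIN1.

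The sequences before the transcription starts are shown because these genes were low together on 1 array. They are the 250 bases upstream of the first start listed for CAV1, CAV2, CAVIN2 and EHD2 by RefSeq on GRCh38.p14, printed 5′ to 3′ on the strand of the gene. The table of promoters used here lists 3 starts for CAV1 and 2 for CAV2, and CAVIN1 and CAVIN3 were not analysed here in this respect. CAV1 lies at chr7:116524759-116525008 and CAV2 at chr7:116499488-116499737, both on the plus strand, CAVIN2 at chr2:191847089-191847338 on the minus strand and EHD2 at chr19:47713172-47713421 on the plus strand. Capitals mark matches, on either strand, to the GC box (GGGCGG), the TATA box (TATAAA), the AP-1 motif (TGANTCA) and the TEAD motif (GGAATG).
CAV1: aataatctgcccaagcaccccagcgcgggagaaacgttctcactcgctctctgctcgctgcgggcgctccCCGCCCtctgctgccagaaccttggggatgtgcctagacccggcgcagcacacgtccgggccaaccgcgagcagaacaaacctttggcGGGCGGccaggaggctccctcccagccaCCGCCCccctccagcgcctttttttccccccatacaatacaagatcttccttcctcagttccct
CAV2: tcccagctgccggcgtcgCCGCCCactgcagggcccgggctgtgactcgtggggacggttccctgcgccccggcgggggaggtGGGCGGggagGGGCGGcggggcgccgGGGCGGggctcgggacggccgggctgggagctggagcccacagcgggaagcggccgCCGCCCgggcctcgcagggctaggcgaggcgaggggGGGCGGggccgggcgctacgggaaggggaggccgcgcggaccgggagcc
CAVIN2: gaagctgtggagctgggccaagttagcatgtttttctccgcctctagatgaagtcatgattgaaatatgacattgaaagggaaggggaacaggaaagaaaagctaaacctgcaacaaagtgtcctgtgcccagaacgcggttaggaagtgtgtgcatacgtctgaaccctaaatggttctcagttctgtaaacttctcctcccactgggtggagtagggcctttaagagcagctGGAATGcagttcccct
EHD2: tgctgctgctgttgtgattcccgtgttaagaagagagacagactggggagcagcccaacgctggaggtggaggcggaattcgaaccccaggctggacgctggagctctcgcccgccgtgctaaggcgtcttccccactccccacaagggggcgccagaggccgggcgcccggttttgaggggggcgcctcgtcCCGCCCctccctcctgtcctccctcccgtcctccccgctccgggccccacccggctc

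The 4 upstream windows differed in base composition. That of CAV2 had 83.2% G and C, 35 CpG sites and 6 GC boxes, and that of CAV1 had 63.6%, 18 CpG sites and 3 GC boxes. At the third start listed for CAV1 the window had 73.2%, 29 CpG sites and 2 GC boxes, and at the second start of CAV2 it had 70%, 27 CpG sites and 3 GC boxes. The window of EHD2 had 69.6%, 20 CpG sites and 1 GC box. The window of CAVIN2 had 48% G and C, 4 CpG sites, no GC box and 1 TEAD match. Over 35116 windows of the same length, the median was 58% G and C and 11 CpG sites. A GC box was present in 42.6% of those windows, a TEAD match in 11.9%, an AP-1 match in 6.57% and a TATA box in 3763 windows. None of the 4 windows held the letters of a TATA box or an AP-1 motif. A match is a description of the letters and does not show a bound factor.

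CAV1, the principal structural protein of caveolae outside striated muscle, was measured by a probe that was spotted 10 times on each array. This probe, A_23_P134454, had log2 signals of 13.34, 13.50, 13.29 and 6.66. It was brighter than 98.1% to 98.3% of probes on the first 3 arrays and than 68.8% on the 48 h array of non-specific stapled-peptide. The difference was 0.16 at 24 h and -6.63 at 48 h, that is 99.1-fold lower. Before normalization, the 9 unmarked spots ran from 8716 to 9525 with stapled-peptide at 48 h and from 96.0 to 149 with non-specific stapled-peptide. The spots of the arrays did not overlap at 48 h, and the 1 spot that the software had marked on the latter array, at 263, lay far below the former as well. The SD of the log2 spot signals was 0.040 and 0.18 on these arrays, which measures how well spots on an array repeat and holds no variation from culture to culture. The second probe of CAV1, A_24_P12626, had log2 signals of 12.89, 13.02, 12.92 and 6.51. Its difference at 48 h was -6.40, or 84.6-fold lower, so the differences of the 2 probes of CAV1 lay 0.23 apart.

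CAV2, the partner of CAV1 in mixed oligomers, also had a probe with 10 spots, A_23_P123071, at log2 10.43, 10.50, 10.25 and 5.68. The difference was 0.07 at 24 h and -4.57 at 48 h, or 23.7-fold lower. Its spots ran from 1061 to 1148 with stapled-peptide at 48 h and from 44.7 to 62.0 with non-specific stapled-peptide, again with no overlap. The other probe, A_24_P925040, had log2 signals of 7.46, 7.34, 7.56 and 4.81. It was lower by 6.75-fold at 48 h, a difference of -2.76, from an unnormalized signal of 26.6 whose error as given by the scanner software was 15.7%. Both probes of CAV2 were lower at 48 h, and their differences lay 1.81 apart.

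**Figure D2:**
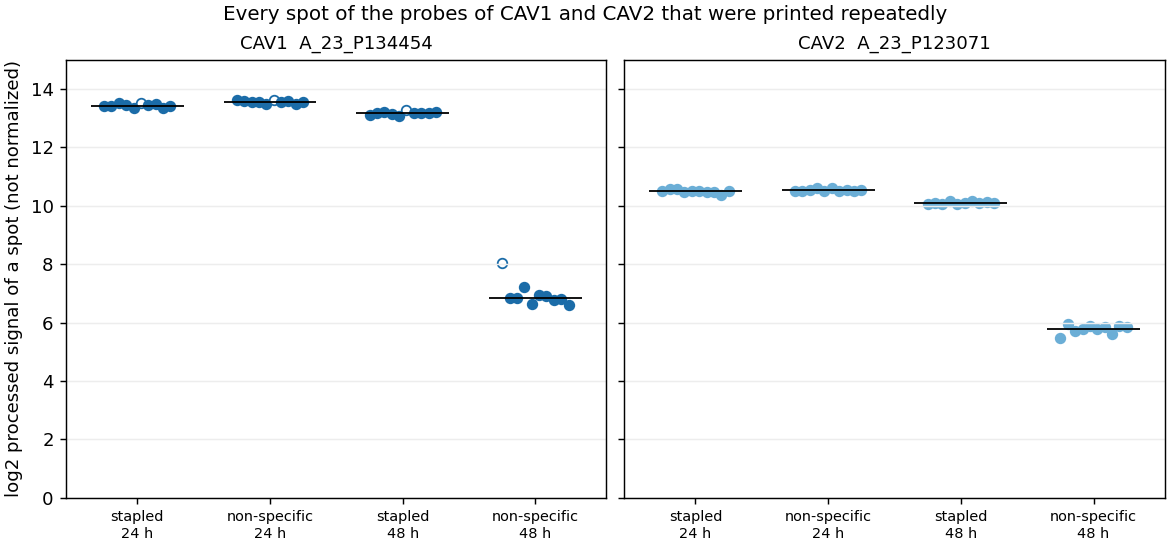
Log2 processed signal, not normalized, of every spot of the CAV1 and CAV2 probes that were spotted 10 times, by array, with open points for spots marked as outliers by the software and a line at the mean of the unmarked spots. The spots of each array lie close together, and those of the 48 h array of non-specific stapled-peptide do not overlap with the others.

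CAVIN1, formerly PTRF, is the cavin without which the coat does not form. Its 2 probes, both assigned to the transcript NM_012232, ran in opposite directions at 48 h. Probe A_23_P394064 had log2 signals of 14.51, 14.46, 14.65 and 8.0. It was 101-fold lower with non-specific stapled-peptide at 48 h, a difference of -6.66. Probe A_33_P3280066 had log2 signals of 14.71, 14.85, 14.84 and 16.29, and was 2.74-fold higher, a difference of 1.46. At 24 h the differences of the probes were -0.06 and 0.14. On the first 3 arrays each probe therefore kept a steady level of its own, and they parted only on the 48 h array of non-specific stapled-peptide.

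Neither spot of CAVIN1 was marked as an outlier or as saturated on any array. The unnormalized signals were 25150, 23494, 23838 and 279 for A_23_P394064, and 29544, 31048, 27416 and 79117 for A_33_P3280066. On the 48 h array of non-specific stapled-peptide the latter was brighter than 99.7% of probes, and the software gave its error as 10.0%. The 8 spots around it had a median signal of 171 there and a highest signal of 3569, so the bright signal was not shared by its surroundings. The 8 spots around A_23_P394064 had medians of 97.7, 102, 84.2 and 143. Where in the transcript each probe lies was not analysed here. The gene value of CAVIN1 rests on A_33_P3280066, the probe with the higher mean. With A_23_P394064 in its place, an alternative chosen after seeing the data, 6 of 6 genes were lower by more than 10-fold and the median difference was -6.37.

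The gap between the probes of CAVIN1 was set against all genes with several probes. This gap was known before the comparison was made, so its rank is a description. At 48 h, 4512 genes had more than 1 probe with a difference, and the median range over the probes of a gene was 0.61. The range of CAVIN1 was 8.11, the largest of the 4512, and that of CAV2 was 1.81 and of CAV1 0.23. Of 195 genes with a probe lower by more than 10-fold, 11 had another probe that was higher at all and 4 had another that was higher by more than 2-fold. These 4 were CAVIN1, MIEF1, SP100 and FZD10-AS1. The range of CAVIN1 was the largest in 7 of the 8 ways of processing tried, and in the remaining one, which set no lower limit for dim probes, it was exceeded by CALCA, NCAM1 and SPATA3-AS1.

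**Figure D3:**
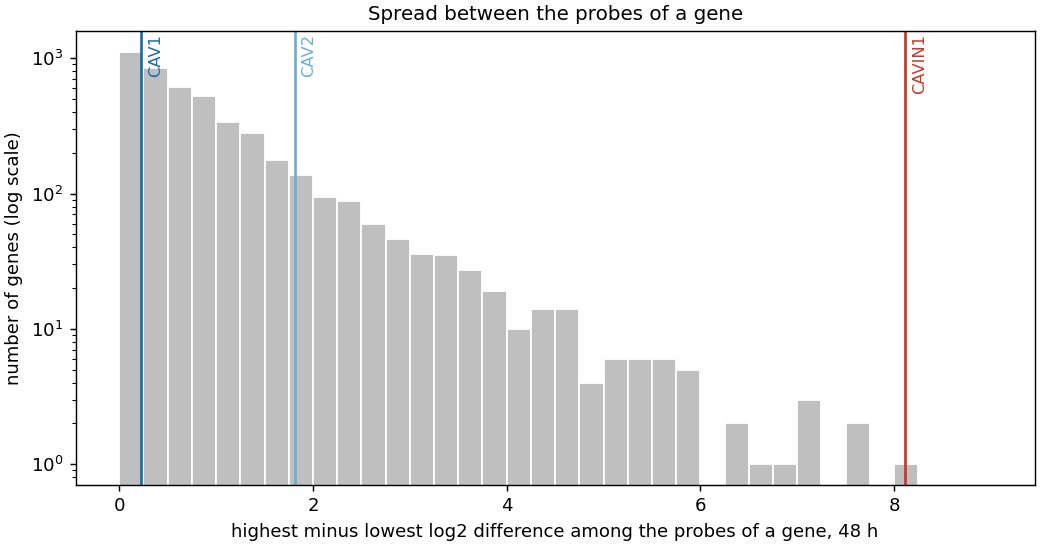
Number of genes, on a log scale, by the range of the log2 differences at 48 h over the probes of a gene, for the 4512 genes with more than 1 probe. Vertical lines mark CAV1 at 0.23, CAV2 at 1.81 and CAVIN1 at 8.11, at the right end of the distribution.

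CAVIN2, formerly SDPR, is a cavin that shapes the curvature of the membrane. Its probe A_23_P72668 had log2 signals of 8.67, 8.81, 8.76 and 3.59, and on the last array it was not well above background. The difference was 0.14 at 24 h. At 48 h it can be given only as a bound of -5.17, at least 36.0-fold lower, taken against the lowest signal among probes well above background on that array or the probe's own signal, whichever was higher. Under normexp the difference was -2.69, which is short of 10-fold, so the size of this bound rests on the background correction. CAVIN2 was the only one of the 9 probes without a signal well above background on some array.

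CAVIN3, formerly PRKCDBP and known as a binding partner of protein kinase C delta, had the largest difference of the 9 probes. Probe A_23_P203475 had log2 signals of 13.93, 13.97, 13.94 and 5.42, from unnormalized signals of 17087, 16932, 14524 and 43.9. It was 367-fold lower with non-specific stapled-peptide at 48 h, a difference of -8.52, and its difference at 24 h was 0.04. EHD2 had log2 signals of 12.47, 12.46, 12.46 and 6.34 at probe A_24_P156113. It was 69.4-fold lower at 48 h, a difference of -6.12, and its difference at 24 h was -0.02. EHD2 varied least of the 9 probes over the first 3 arrays, with a range of 0.02, followed by CAVIN3 with 0.04.

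In order of the difference at 48 h, CAVIN3 came first, then the lower probe of CAVIN1, CAV1, EHD2 and CAV2. CAVIN2 has no place in this order, since its value is a bound. The lower probe of CAVIN1 and the probe of CAV1 with 10 spots differed in this by 0.02, less than the 0.23 between the probes of CAV1, and with 1 array per group their order is not settled. The 2 probes also lay on either side of 100-fold, at 101-fold and 99.1-fold. Between the probes with 10 spots, the difference of CAV2 was -4.57 and that of CAV1 -6.63. Because 6 of the 9 probes had log2 signals of at least 12 on all of the other 3 arrays, they were set beside the 1917 probes as bright as that. Of those, 180 (9.39%) were lower by more than 10-fold at 48 h, with a median difference of -0.25, and 5 of the 6 were.

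**Figure D4:**
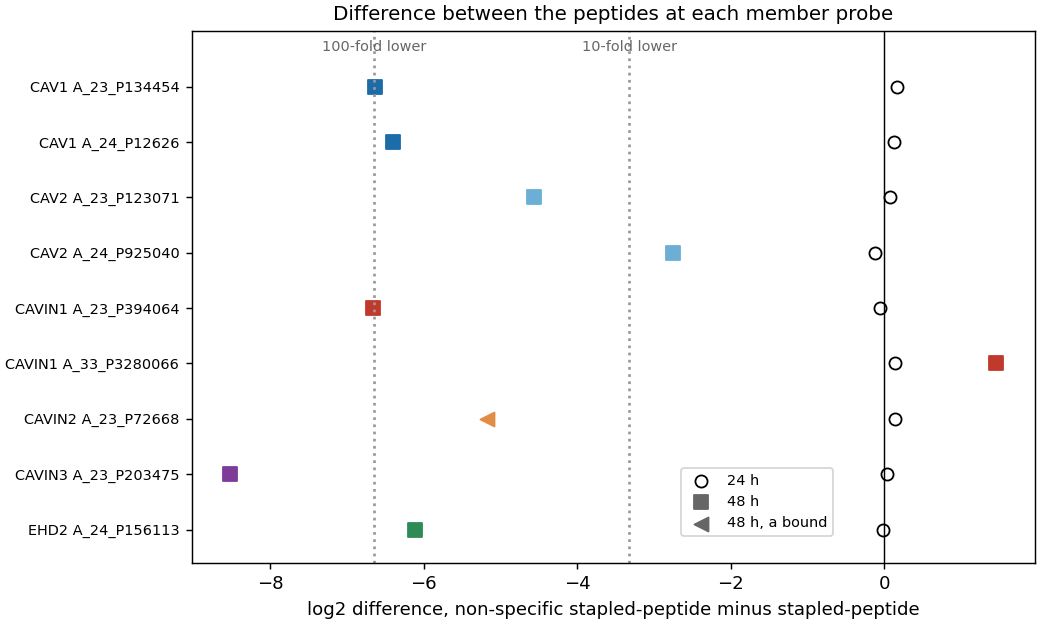
Log2 difference between the peptides at each of the 9 probes, non-specific stapled-peptide minus stapled-peptide, at 24 h (open circles) and 48 h (squares, with a triangle for the bound of CAVIN2). Dotted lines mark 10-fold and 100-fold lower. All points at 24 h lie between -0.12 and 0.16, and those at 48 h between -8.52 and 1.46.

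The change from 24 h to 48 h was read within each peptide as well. With stapled-peptide, none of the 9 probes changed by more than 2-fold, against 3.46% of all probes, and the values ran from -0.18 for CAV2 to 0.14 for CAVIN1. With non-specific stapled-peptide, 7 of the 9 were lower at 48 h by more than 10-fold, against 2.5% of all probes. CAVIN3 was lower by 376-fold, CAV1 by 114-fold and CAVIN1 at A_23_P394064 by 88.0-fold, whereas CAVIN1 at A_33_P3280066 was higher by 1.44 on the log2 scale. This comparison and that between the peptides at 48 h share the same array, so they are not separate evidence.

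CAV3 and CAVIN4 are the muscle members of the caveolin and cavin families, and they went in opposite directions. CAV3 had log2 signals of 5.47, 5.36, 5.60 and 1.95, the last of these too dim to be called above background, with a bound of -2.03. CAVIN4 was well above background on that array only, at 7.27, against 3.31, 3.66 and 3.67 elsewhere, and was at least 10.5-fold higher there. The 5 markers of skeletal muscle summed to signals of 62.9 to 84.4 on the other 3 arrays and to 175 on this one. Their part in the values of CAV3 and CAVIN4 was not tested.

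Beyond the families themselves, 38 related genes were read, grouped by role. Of these, 37 had a difference at 48 h, of which 14 were lower and 5 higher by more than 2-fold, with a median of -0.54. Over all genes, 19.8% were lower and 21.2% higher by more than 2-fold. Past 10-fold there were 1 lower gene and 2 higher ones, CAVIN4 among the latter. At 24 h, none of the 35 with a difference passed 2-fold, and the share of all genes past 2-fold at that time was not counted.

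Among the genes of the caveola neck and the other EHD and PACSIN genes, 3 of 8 were lower and 2 higher by more than 2-fold, with a median of 0.04. This median had no settled sign, at -0.01 with scaling to the 75th percentile, -0.25 when genes with only a bound were left out and 0.33 without normalization. FLNA, an actin cross-linker that binds CAV1, had log2 signals of 13.75, 13.60, 13.71 and 10.48, a difference of -3.23, and it was named for being the largest of this list after its values were seen. EHD4, a paralogue of EHD2, had a difference of -0.25. PACSIN2, a membrane-bending protein of the caveola neck, had 0.32, and DNM2, the dynamin that cuts vesicles from the membrane, had 0.39. None of the 8 genes passed 10-fold, which EHD2 did.

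The scaffolds of other membrane rafts, the flotillins, stomatin and the erlins, were lower by more than 2-fold for 3 of 5 genes, with a median of -1.25. ERLIN2 had the smallest difference, 0.16, with 1 of its probes at -0.72. Of the clathrin coat, the other main route of endocytosis, 3 of 9 genes were lower by more than 2-fold and none was higher, with a median of -0.54. The clathrin light chain CLTA had log2 signals of 13.13, 13.09, 13.11 and 13.21, a difference of 0.10. The clathrin assembly protein PICALM had a difference of -0.29 and the adaptor subunit AP2A2 one of 0.31. The other probe of PICALM was lower by slightly more than 2-fold, and that of AP2A2 was at -0.37. No gene of these lists passed 10-fold.

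Of 14 receptors and signalling proteins described in caveolae, CD36 was not well above background on either array at 48 h. Of the other 13, 4 were lower and 2 higher by more than 2-fold, with a median of -0.49. TGFBR2, the type II receptor of TGF-beta, had log2 signals of 14.42, 14.56, 14.49 and 7.90, and was 96.0-fold lower at 48 h. The Src family kinase FYN went the other way, with log2 signals of 8.21, 8.21, 8.19 and 11.87, a 12.8-fold higher signal. IGF1R at -0.18 and the kinase YES1 at -0.20 had the smallest differences. The receptors and kinases therefore held a gene past 10-fold in each direction.

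**Figure D5:**
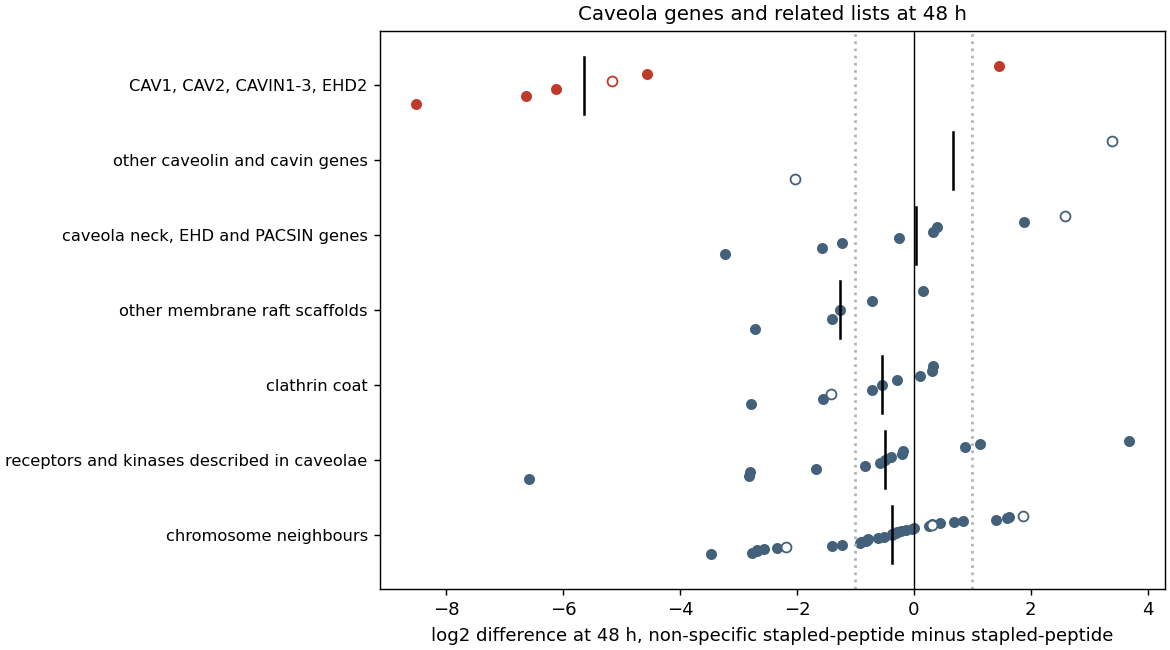
Log2 difference at 48 h, non-specific stapled-peptide minus stapled-peptide, for each gene of the lists (the probe with the highest mean signal), with open points for bounds, black bars at the medians and dotted lines at 2-fold. The 6 caveola genes have a median of -5.64, and the medians of the other 6 lists drawn lie between -1.25 and 0.68.

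The genes beside the 6 caveola genes on the chromosomes were read as well. Of 40 neighbouring protein-coding genes, 4 on each side of each locus, 39 were on the array and 34 had a difference at 48 h. Of these, 9 were lower and 4 higher by more than 2-fold, with a median of -0.37, against 19.8% lower and 21.2% higher over all genes. MET and CAPZA2, next to the CAV1 and CAV2 locus, had differences of -0.78 and -0.37, and TES on the other side had 0.68. The other probe of CAPZA2 was at 0.27. Beside CAVIN1, STAT3 had -2.57 and ATP6V0A1 had 0.83. Beside EHD2, BICRA had -1.24, with its other probe at 0.32, and NOP53 had -0.30. SMPD1, the acid sphingomyelinase gene next to CAVIN3, was the only neighbour past 10-fold, with log2 signals of 9.46, 9.27, 9.35 and 5.87, or 11.1-fold lower. KPTN, COASY and FHIP1B had the smallest differences, of -0.003, -0.03 and -0.14. Of these neighbours beside the CAV1 and CAV2 locus, none was lower by more than 2-fold, and MDFIC at 1.60 and FOXP2 at 1.63 were higher. The other probe of MDFIC was at -0.70. Whether any stretch of chromosome was low as a whole was not tested.

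The genes most like CAV1 in their pattern over the 4 arrays were KLRC4, TGFBR2, KRT83, ANGPTL4 and PEG10, by the Euclidean distance between log2 signals after each gene's own mean was taken off, with distances of 0.14 to 0.17 among 15283 genes compared. TGFBR2 was already among the receptors above. KLRC4 and PEG10 were not well above background on the 48 h array of non-specific stapled-peptide, so their distances rest on a background level there. The genes most like CAVIN3 were S100A3, ABCC3, SNRPN, MAL2 and LAMB3, with distances of 0.03 to 0.05. The same holds for S100A3 and SNRPN. These patterns rest on 4 arrays and are set almost wholly by the 48 h array of non-specific stapled-peptide.

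Other cell types that carry caveolae were read through their markers. The 8 endothelial markers summed to signals of 694 to 781 on the other 3 arrays and to 74.4 on the 48 h array of non-specific stapled-peptide. Of these markers, 5 had a difference at 48 h, all of them lower and 3 by more than 2-fold. KDR was at log2 9.23, 9.02, 9.18 and 1.89, with a bound of -5.62. PECAM1 was at log2 6.74, 6.81, 6.75 and 3.09, with a bound of -3.18. TIE1, CLDN5 and EMCN were called well above background on none of the 4 arrays. Of the adipocyte markers, the same held for ADIPOQ and FABP4, and the sums were 490 to 570 and 601. Of the 10 fibroblast markers, 7 had a difference at 48 h and 5 of them were lower by more than 2-fold, with a median of -2.12. They summed to 33074 to 35524 and to 454. DCN, which encodes the matrix proteoglycan decorin and made up most of that sum, was at log2 14.84, 14.96, 14.88 and 5.73. FAP was at log2 10.50, 10.61, 10.60 and 2.62, with a bound of -7.03, whereas COL1A1 had a difference of 0.13. Of the 8 luminal markers, 7 had a difference, 3 of them were lower by more than 2-fold and none was higher by that much, with a median of -0.31. Their sums of 94532 to 96489 and of 7448 were carried by the keratins KRT7, KRT18 and KRT8, at -6.06, -2.34 and -2.79, while KRT19 was at 0.94, EPCAM at 0.88, GATA3 at -0.31 and ESR1 at -0.15. Of the 12 basal markers, all were lower by more than 2-fold and 10 by more than 10-fold, with a median of -7.14, below that of the caveola genes. The part of these markers in the values of the caveola genes was not tested.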

How the data were processed

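Total RNA from MCF-10A cultures was labelled with Cy3 and read on 4 Agilent arrays, 1 for each peptide and time. The authors deposited the scanner software's spot intensities on a linear scale, background-subtracted and not normalized between arrays. The file headers name Feature Extraction 10.7.1.1 and the submitters' processing notes name 9.5. Groups were taken from the labels.

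Control spots and spots marked as outliers were left out, log2 intensities were averaged over the spots of a probe, and values were quantile-normalized over the 4 arrays, with a floor of 1 on the signal. In all, 9 of 50599 probes had no spot left on an array and were dropped. RefSeq accessions gave 28174 probes (55.7%) a symbol, and the gene value is that of the probe with the highest mean signal. Where only the brighter array of a pair had a signal well above background, the difference is a bound, and where neither had, there is none. Python 3.11.15, numpy 2.4.6, pandas 2.3.3 and matplotlib 3.10.9 were used, and normexp (offset 50, on the median pixel signal) came from limma 3.58.1 under R 4.3.3. The steps used here were run on simulated data, copies of 1 array with added noise and known changes in bright probes only. The added noise was smaller than the spread between the real arrays at 24 h. Every simulated array had the same background marks, so the rule for bounds was not tested. With 1 array per group no p-value was computed, and precision is limited by the number of arrays.

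The genes and lists were chosen with earlier results of these data known. All probes of the 6 genes are named. From each list other than the markers, the genes past 10-fold at 48 h and 1 to 3 with the smallest difference are named. The 5 genes nearest in pattern to CAV1 and to CAVIN3 are given too. Of the markers only some are named, with KDR, PECAM1, FAP, CDH2, PAX2 and L1CAM picked after their values were seen. FLNA, the neighbours MET, CAPZA2, TES, MDFIC, FOXP2, STAT3, ATP6V0A1, BICRA and NOP53, and the genes with opposed probes were named after their values were seen. Alternatives tried were normexp, no normalization, the 75th percentile as the scale, outlier spots kept, no bound, probes with a bound left out, the authors' combined table, other fold thresholds, and a mean over all probes of a gene. The other probe of CAVIN1, and normalization without the 48 h array of non-specific stapled-peptide, were added after seeing the data.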

Additional observations from a re-analysis of the deposited data

How the results depend on the processing

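No paired analysis was possible because each peptide and time has 1 array, with no replicate numbers to pair. For the differences of the 9 probes, 72 values at 24 h and 55 at 48 h moved by less than 0.43, the SD of all probe differences at 24 h, and 7 at 48 h moved by more, all under normexp, without a change of sign. These were -5.83 and -5.48 for CAV1, -3.47 and -1.38 for CAV2, -2.69 for CAVIN2, -7.37 for CAVIN3 and -5.17 for EHD2. The probes of CAVIN1 ran from -6.75 to -6.31 and from 1.20 to 1.53, with a range between them of 7.77 to 8.11. At 24 h no probe or gene of the 6 passed 10-fold under any setting.

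With a threshold of 100-fold, 2 probes and 1 gene of the caveola genes were lower at 48 h, in place of 7 and 5 past 10-fold. The median difference of the 6 genes, -5.64, was -4.32 under normexp, -6.12 with probes that give only a bound left out, CAVIN2 among them, and -6.37 with the other probe of CAVIN1. Of the related genes, 14 were lower by more than 2-fold and 1 by more than 10-fold. The 5 higher by more than 2-fold became 3 under normexp, 3 without the bounds, and 2 past 10-fold. Normexp was run with an offset of 50. On the 48 h array of non-specific stapled-peptide, the probes that moved under it had unnormalized signals of 10.8 to 115. The lower probe of CAVIN1 had 279 there. The part of the offset in the shift under normexp was not tested. The median of all probes at 48 h was -0.02, and it was -0.14 with scaling to the 75th percentile and 0.20 without normalization. Signal over background limits CAVIN2, which has only a bound, and the second probe of CAV2.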

Other observations

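The 3 other genes with a probe lower by more than 10-fold and another higher by more than 2-fold at 48 h were named after their values were seen. MIEF1, which encodes a mitochondrial fission factor, had a probe, A_33_P3238074, at log2 13.52, 13.70, 13.72 and 8.11, a difference of -5.62. Its other 2 probes were higher, A_23_P103131 by 1.63 and A_23_P109547 by 1.58 on the log2 scale. SP100, a nuclear body protein, had a probe, A_24_P385611, with a bound of -4.58, while A_23_P349928 was higher by 1.16 and A_33_P3228325 had a difference of -0.50. The 3 probes of FZD10-AS1, an antisense transcript, gave only bounds, of -3.98, 1.69 and 0.61. At 24 h, the probes of MIEF1 and SP100 had differences between -0.02 and 0.18.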
